A study of Rattus norvegicus with 15 samples.

Results

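In the rat Achilles tendon, 48 genes stood at least 3 times higher in the proximal than in the distal segment in every animal examined. They were chosen by their proximal and distal levels in CPM, which is a gene's read count divided by its library's total, times 1000000. A gene was taken when its mean over the 5 proximal libraries was at least 3 CPM and its proximal level was at least 3 times its distal level plus 0.1 CPM in each of the 5 rats. These conditions were met by 51 of the 32883 genes in the table. Of those, 3 were then left out because they were under 1 CPM in all distal libraries, averaged at least 30 CPM in proximal tendon and were under 5 CPM in at least 1 proximal library. The middle segments took no part in the choice. The animals were healthy, untreated male Sprague-Dawley rats of 8 weeks. Tendons were cut out between the muscle-tendon junction and the bony insertion and divided into proximal, middle and distal segments of equal length, and the same segment of both limbs of a rat was pooled into 1 RNA sample. This gave 15 poly(A)-selected libraries, 5 per region, with all 3 regions from each rat.

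The Achilles tendon joins the calf muscles to the heel bone. Its proximal end continues from the muscle-tendon junction, where muscle fibres anchor in the collagen matrix, and its distal end runs toward the insertion on bone, where tendons can become fibrocartilaginous. Tendon also holds vessels, nerves, immune cells and a loose outer sheath, so a regional difference in a bulk sample can come from any of them. Fewer cells of a type and less RNA per cell cannot be told apart in such samples. The deposited table names genes by Ensembl identifier only, and symbols could be matched to 0 of these 32883 through the gene table used here. The members are therefore numbered 1 to 48 by falling mean proximal CPM, only 2 are printed by identifier, and no known function or sequence is attached to any. The lists of pathway and cell type markers drawn up for this tissue could not be applied, so the labelled tissue was not checked against its markers. The numbering orders read counts, which also depend on transcript length, and not transcript levels.

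Library totals ran from 23530376 to 30178952 counts in the distal region, from 18866801 to 27817554 in the middle and from 15413963 to 22205927 proximally. A further set of 41 genes was near absent distally and uneven proximally (under 1 CPM in all distal libraries, a proximal mean of at least 30 CPM and a lowest proximal level under 5 CPM). The 3 genes left out above belong to it, and no member does. Its summed level separated libraries of the same region. Proximally it reached 24542, 13517 and 25866 CPM in rats 3, 4 and 5, but only 673 CPM in rat 1 and 14.5 CPM in rat 2. In the middle it was 14.8 to 24.5 CPM in rats 1 to 4 and 3042 CPM in rat 5, and in distal libraries 8.48 to 11.0 CPM. The middle library of rat 5 and the proximal library of rat 2 thus stood furthest from the others of their region. The proximal library of rat 1 was also far below those of rats 3, 4 and 5. Several results below that rest on middle rat 5 or proximal rat 2 are also given without them. Scaling by trimmed mean of M values (TMM), used in the fits, puts the mean proximal library 0.13 and the mean middle library 0.11 log2 units lower against distal than the plain CPM used here to describe levels.

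Summed over the 48 members, the level was 136, 119, 178, 121 and 171 CPM in the distal segments of rats 1 to 5. It was 383, 368, 519, 455 and 965 CPM in the middle segments and 770.4, 857, 3366, 2054 and 3816 CPM in the proximal segments. Within every rat the middle sum lay between both ends. Between rats the middle and proximal sums overlapped, since the middle of rat 5 exceeded the proximal segments of rats 1 and 2. The proximal excess is what the members were chosen for and is given as a description. The order of the middle was not part of the choice. Like the set of 41 variable genes, the members had their lowest proximal sums in rats 1 and 2, and their part in the members' levels was not tested.

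**Figure D1:**
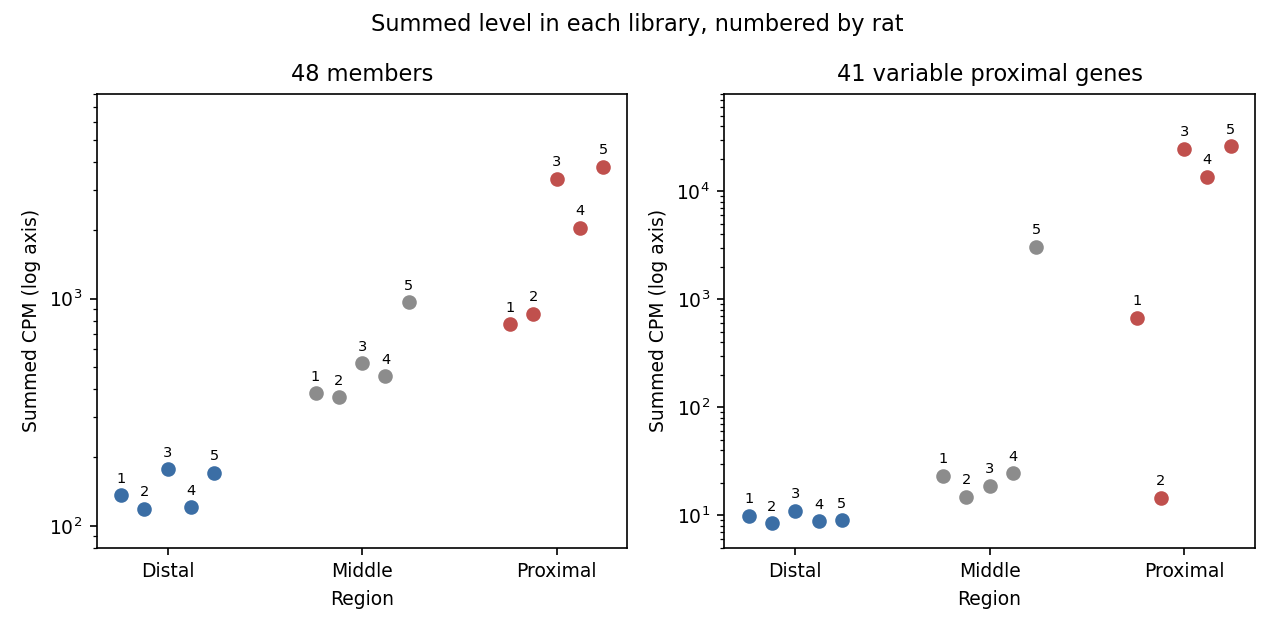
Summed CPM (log axis) of the 48 members (left) and of the 41 variable proximal genes (right) in each library, by region, with the rat number above each point. The members' sum is lowest in the distal and highest in the proximal segment of each rat, while the variable genes are at 14.5 CPM in the proximal segment of rat 2 and at 3042 CPM in the middle segment of rat 5.

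Member 1, ENSRNOG00000010524, had both the highest mean proximal CPM and the largest of the smallest within-rat ratios. It was at 4.38, 5.40, 7.44, 6.69 and 4.87 CPM in the distal segments of rats 1 to 5 and at 50.5, 61.3, 941, 467 and 1297 CPM in the proximal segments. The middle segments held 7.94, 16.1, 13.6, 30.1 and 159 CPM. Distal and proximal values did not overlap, and the middle lay between both ends in every rat. Its proximal level was 11.3 and 11.1 times the distal level plus 0.1 CPM in rats 1 and 2, against 125, 68.8 and 261 times in rats 3, 4 and 5. It was the only member at least 3 times higher in proximal than in middle tendon (plus 0.1 CPM) in all 5 rats, yet neither step along the tendon passed the test on its own. The log2 fold change was 1.97 ± 0.73 (approximate SE) from distal to middle (edgeR quasi-likelihood test, adjusted p = 0.0755) and 3.57 ± 0.74 from middle to proximal (edgeR, adjusted p = 0.0651). DESeq2 called both steps (adjusted p = 0.0204 and 3.39e-05), and limma the distal-to-middle step (adjusted p = 0.0308) but not the other (adjusted p = 0.0791). Neither was called by edgeR with no rat block (adjusted p = 0.0536 and 0.138), nor with any rat left out (adjusted p = 0.0654 to 0.211 and 0.0649 to 0.257).

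Members 2 and 4 were the most uneven. Member 2 was at 1.13 to 1.70 CPM in distal libraries and at 24.5, 4.73, 654, 329 and 509 CPM in the proximal segments of rats 1 to 5. Member 4 was at 0.806 to 1.71 CPM in distal libraries and at 14.1, 3.75, 317, 173 and 334 CPM in the proximal segments. Both were lowest in rat 2, where they passed the limit with ratios of 3.25 and 4.04, and rats 3, 4 and 5 exceeded the other rats by more than 10 times. In the middle segments of rats 1 to 4 member 2 was at 2.09, 1.79, 3.37 and 4.77 CPM and in rat 5 at 73.7 CPM. Member 4 was at 2.23, 1.64, 2.77 and 3.64 CPM in the middle of rats 1 to 4 and at 43.0 CPM in rat 5. Neither member was called between middle and distal tendon (edgeR, log2 fold change 2.11 and 2.36, adjusted p = 0.254 and 0.132). Without rat 5 the fold changes fell to 0.85 and 1.40 (edgeR, adjusted p = 0.696 and 0.485).

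Member 3 was already well expressed distally. It was at 29.96, 22.2, 27.6, 27.5 and 32.4 CPM in distal, 69.6, 79.2, 76.1, 57.1 and 83.6 CPM in middle and 144, 75.8, 306, 209 and 395 CPM in proximal segments. The middle values lay close together and above all distal values, including that of rat 5, which did not stand apart here. In rat 2 the middle was slightly above the proximal level. Members 5, 6 and 10 followed the course of member 1 with smaller ratios, from 3.91, 3.25 and 3.48 in rat 2 up to 26.3, 17.3 and 27.1 in rat 5.

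Members 7, 8 and 9 did not share the wide gap between rats. Member 7 was at 10.6, 11.1, 14.02, 12.3 and 10.7 CPM in distal, 33.6, 47.6, 70.9, 48.3 and 25.8 CPM in middle and 102.5, 66.0, 96.6, 53.4 and 41.5 CPM in proximal segments of rats 1 to 5. Its proximal level was highest in rat 1 and lowest in rat 5, whereas members 1 to 6 were highest in rat 3 or 5 and lowest in rat 1 or 2. Member 8 was at 41.9, 56.1, 56.4, 64.9 and 76.1 CPM in proximal segments, a range of 1.82 times. Member 9 was at 23.5, 20.3, 52.3, 38.4 and 67.0 CPM in middle and 29.0, 63.0, 32.2, 40.4 and 47.1 CPM in proximal segments. Its middle level reached or passed the proximal level in rats 3 and 5, so the regions overlapped. All 3 members were higher in middle than in distal tendon, by 1.77 ± 0.28, 2.04 ± 0.24 and 2.15 ± 0.33 log2 units (approximate SE; edgeR, adjusted p = 0.00195, 0.000860 and 0.00186).

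**Figure D2:**
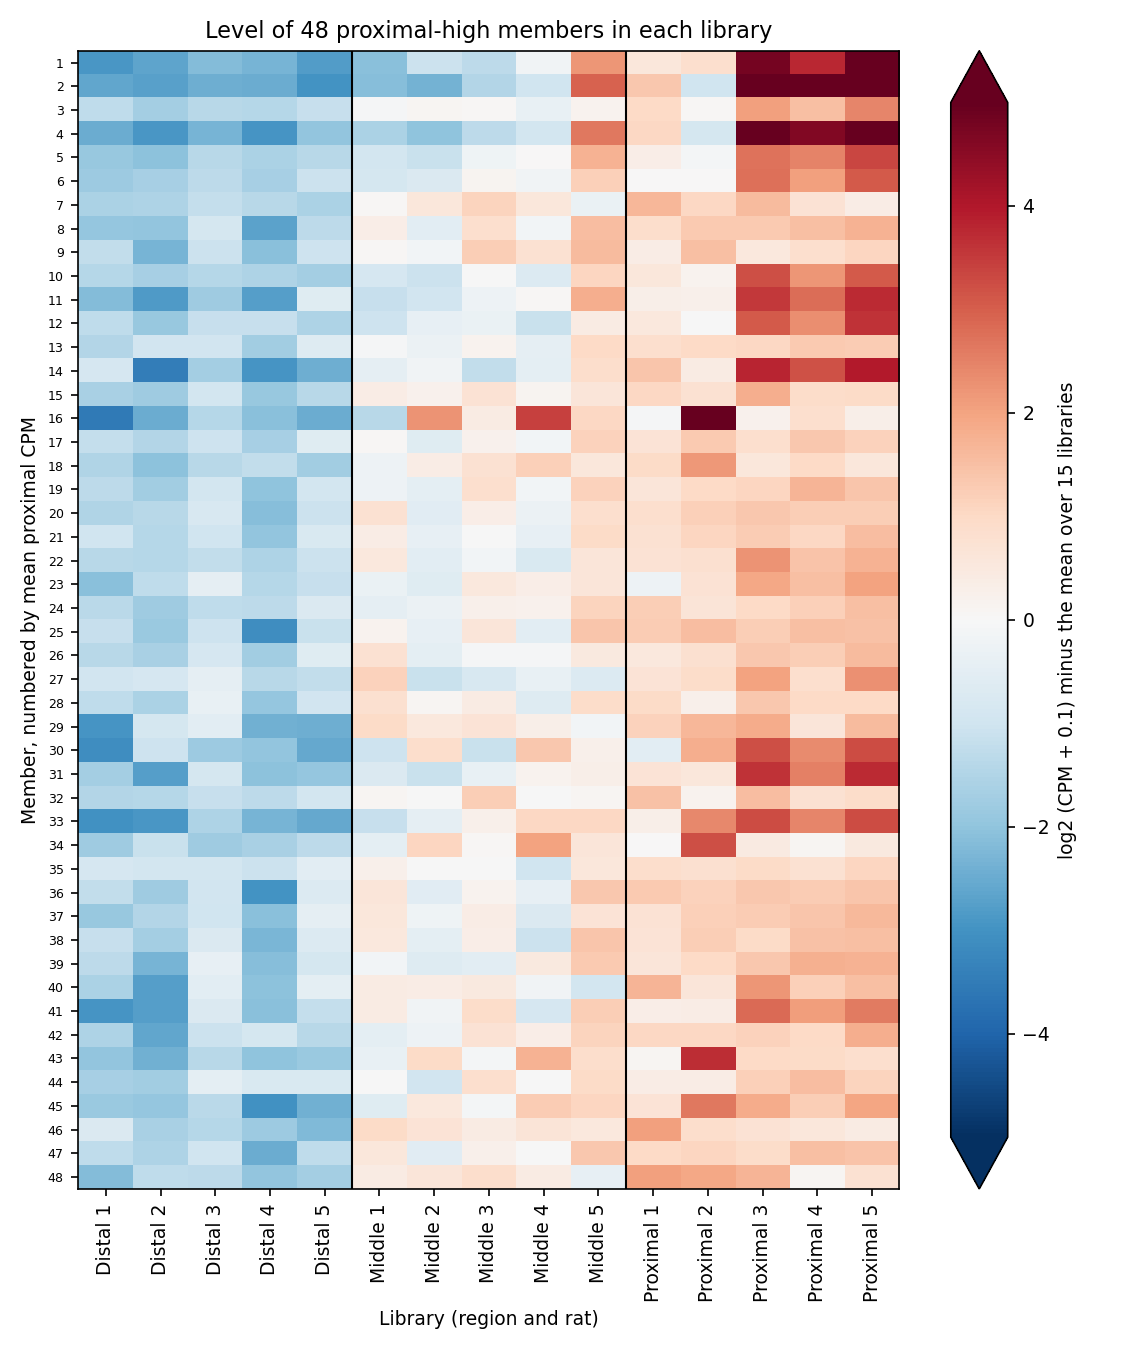
Level of the 48 members (rows, numbered by mean proximal CPM) in the 15 libraries (columns, by region and rat), as log2 (CPM + 0.1) minus each member's mean over all libraries. Distal libraries are low, members 1, 2 and 4 are highest in the proximal libraries of rats 3, 4 and 5, and member 16 is highest in the proximal library of rat 2.

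The members differed widely in how even they were between the 5 proximal libraries. The highest proximal level was 1.18 to 138 times the lowest, with a median of 2.99. It was over 5 times the lowest for 17 of the 48 members (35.4%), against 3.80% of all 12102 genes with a mean proximal level of at least 3 CPM. The same number of members, 17, passed this limit on TMM-scaled CPM. A further 18 members had a range of 2.06 to 4.88 times and 13 one of 1.18 to 1.88 times. The limits of 2 and 5 were set after the values had been seen.

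The most even members differed little between animals at the proximal end. Member 35 was at 2.12, 2.02, 2.003, 1.77 and 2.65 CPM in distal and at 7.25, 6.85, 7.62, 6.62 and 8.28 CPM in proximal segments. Its ratio was 3.01 to 3.63 in the 5 rats, relatively the narrowest range of the 48 members. Member 36 was at 7.30, 6.61, 7.503, 7.07 and 7.77 CPM in proximal segments, but at 1.19, 0.762, 1.44, 0.282 and 1.75 CPM in distal ones. Its ratios of 4.19 to 18.5 thus varied with the distal level. Member 13 was at 24.5, 27.2, 28.1, 33.3 and 32.8 CPM in proximal and 4.80, 6.89, 6.88, 4.03 and 8.72 CPM in distal segments. The 41 variable genes summed to 14.5 to 25866 CPM in the same libraries, while members 36 and 13 ranged over only 1.18 and 1.36 times. In CPM member 36 was, like the variable genes, lowest in rat 2 and highest in rat 5. Member 13 was lower in rats 1 and 2 than in the others. Rat 5 was the highest proximal library for 51.0% of all genes with a mean proximal level of at least 3 CPM. In rats 1 to 5 the proximal TMM factors were 0.83, 1.02, 0.99, 1.17 and 1.23. They span more than either range, so the order of the rats in these members depends on the scaling.

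Among the 17 uneven members, 14 shared the same pair of lowest rats and the same pair of highest rats. In all 14 the proximal level was lowest in rats 1 and 2 and highest in rats 3 and 5. Within the pairs the order differed, with rat 2 lowest in 9 of the 14 and rat 5 highest in 11. The median of the 14 was 10.02 and 6.51 CPM in the proximal segments of rats 1 and 2 and 66.1, 36.0 and 72.1 CPM in those of rats 3, 4 and 5. In the middle segments the median was 2.25 to 4.75 CPM in rats 1 to 4 and 17.1 CPM in rat 5, and 13 of the 14 were highest in rat 5. The summed level of the 41 variable genes was likewise lowest in proximal rats 1 and 2, highest in proximal rats 3 and 5, and highest in middle rat 5. That sum was far lower in proximal rat 2 than in rat 1. Members 30 and 33 were instead lower in rat 1 (1.26 and 1.76 CPM) than in rat 2 (6.90 and 7.84 CPM). The variable genes were not tested as a source. In the distal libraries the median of the 14 was 1.11 to 1.83 CPM, and 4 of them were under 1 CPM in all distal libraries, as the variable genes are by definition.

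The other 3 uneven members were highest in proximal rat 2 and lowest in rat 1. Rat 1 was also lowest for 69.9% of all genes with a mean proximal level of at least 3 CPM. Member 16, ENSRNOG00000009345, had the widest range of the 3. This identifier was picked after its values had been seen. It was at 2.93, 98.5, 3.51, 5.51 and 3.74 CPM in the proximal segments of rats 1 to 5. The distal segments held 0.170, 0.464, 1.06, 0.645 and 0.467 CPM and the middle segments 1.11, 14.8, 4.07, 33.3 and 6.41 CPM. The proximal library of rat 2 and the middle library of rat 4 stood far above the rest, and in rats 3, 4 and 5 the middle exceeded the proximal level. It was called between middle and distal tendon (log2 fold change 3.96 ± 1.03, edgeR, adjusted p = 0.0213) but not between proximal and middle (0.24 ± 0.86, adjusted p = 0.902). Its 5 distal libraries held 74 counts in all, so the size of its fold changes is imprecise. Without rat 1, 4 or 5 the middle-to-distal adjusted p was 0.0543, 0.0715 or 0.0623 (edgeR).

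Members 34 and 43 followed the same course. Member 34 was at 2.57, 24.6, 3.51, 2.72 and 3.63 CPM in proximal and 1.80, 5.40, 2.68, 10.6 and 3.87 CPM in middle segments. Member 43 was at 1.04, 13.7, 2.02, 1.95 and 1.81 CPM in proximal and 0.719, 1.98, 0.908, 3.47 and 1.86 CPM in middle segments. Proximal rat 2 and middle rat 4 were again the highest of their region. Members 18 and 45 showed it with a narrower range, at 35.7 and 6.90 CPM in the proximal segment of rat 2 and 18.1 and 2.65 CPM in the middle of rat 4. In all, 7 members (14.6%) were highest in the proximal segment of rat 2. This was near the 12.1% of all genes with a mean proximal level of at least 3 CPM. Of the 7, 5 were highest in the middle segment of rat 4, as were 7.87% of all such genes. In both of these libraries the 41 variable genes were at their low level, 14.5 and 24.5 CPM.

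**Figure D3:**
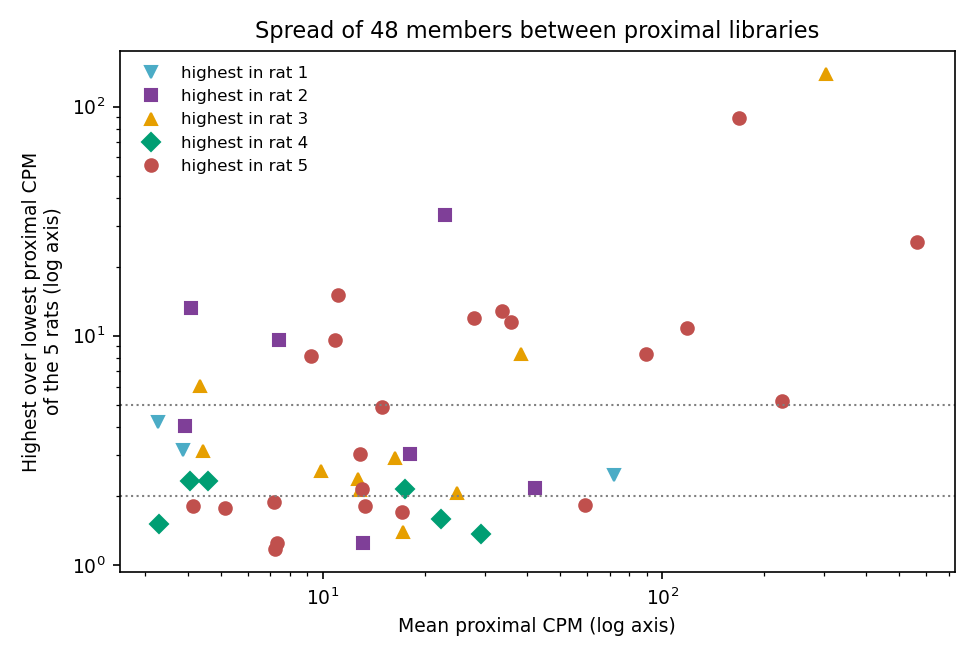
Each point is 1 member, placed by its mean proximal CPM (log axis) and by its highest over its lowest proximal CPM among 5 rats (log axis). Symbols give the rat with the highest proximal level, and dotted lines mark 2 and 5 times; the 17 members above the upper line were highest in rat 2, 3 or 5.

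Which rat held the highest value depended on the scaling. In CPM, 22 of the 48 members (45.8%) were highest in the proximal segment of rat 5, against 51.0% of all genes with a mean proximal level of at least 3 CPM. After TMM scaling 7 members were highest there and 20 in rat 3. The middle of rat 5 was the highest middle library for 33 members (68.8%) in CPM, close to 65.3% of all such genes, and for 23 members after TMM scaling. The proximal segment of rat 2 was highest for 7 members under either scaling, which in CPM was near the share of all such genes (14.6% against 12.1%).

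**Figure D4:**
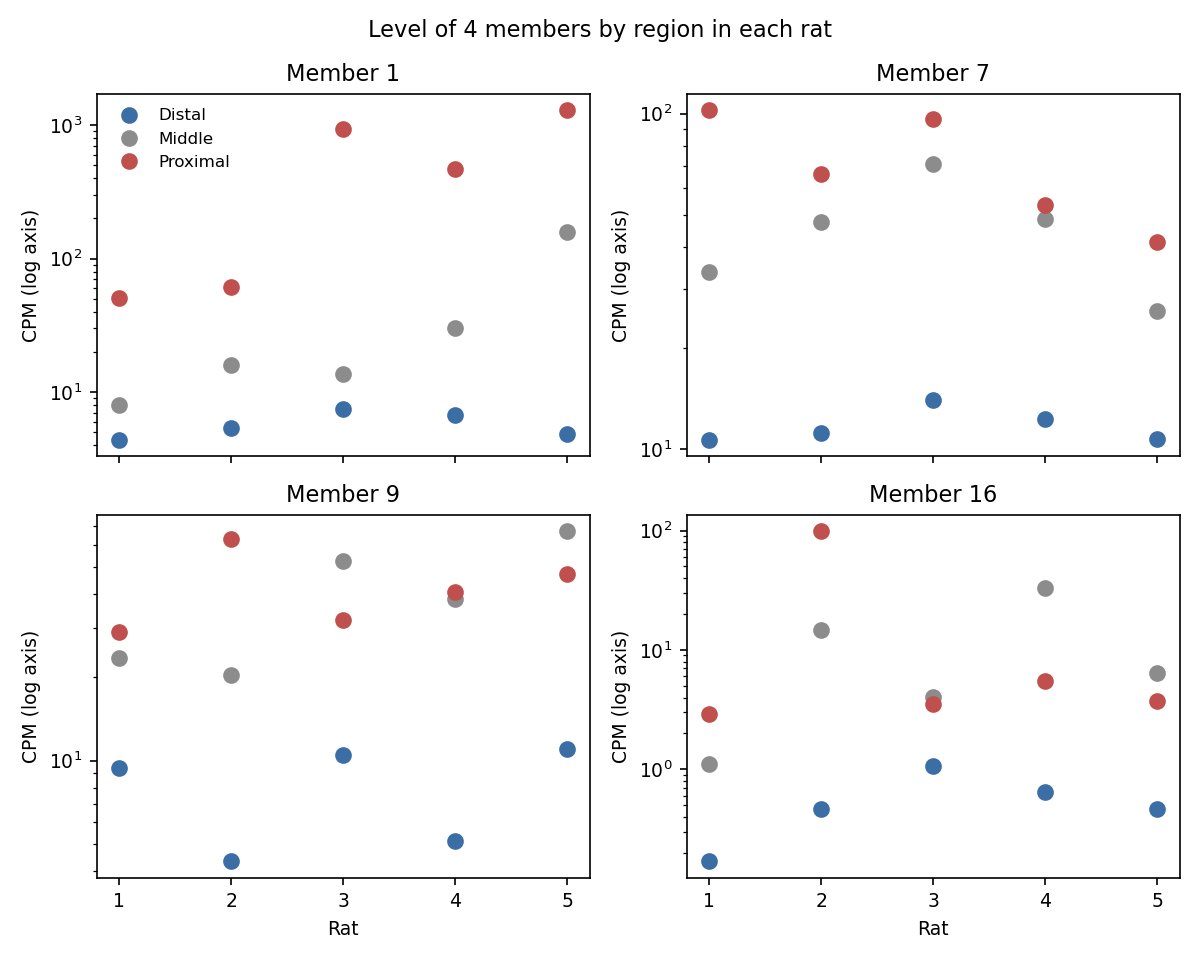
CPM (log axis) of members 1, 7, 9 and 16 in the distal, middle and proximal segments of each rat. Member 1 is highest in proximal segments of rats 3 to 5, member 7 in that of rat 1, member 9 overlaps between middle and proximal segments, and member 16 reaches 98.5 CPM in the proximal segment of rat 2.

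The middle segments were read for a gradient or a step between both ends. The middle exceeded the distal level in all 5 rats for 45 members, in 4 rats for 2 and in 3 rats for 1. It lay below the proximal level in all 5 rats for 36 members, and between both ends in all 5 rats for 34. In single rats it lay between both ends for 45, 46, 43, 41 and 41 members in rats 1 to 5. Of all genes with a mean of at least 3 CPM in the other rats' proximal libraries, 14.1%, 33.2%, 22.6%, 48.4% and 39.5% did so. The members' ends were chosen at least 3 times apart, which favours a middle between them, so the counts are a description. The place of the middle between distal (0) and proximal (1) was computed on log2 (CPM + 0.1). The median over members was 0.617, 0.505, 0.486, 0.553 and 0.677 in rats 1 to 5, which gives 0.567 ± 0.0794 (SD, n = 5 rats). On linear CPM it was 0.347, so the middle was near the centre on the log scale and nearer to the distal end in absolute level. Both ends of this scale were used to choose the members. By the factor of 3 used in the rule, the middle already exceeded the distal level (plus 0.1 CPM) in 22, 19, 14, 29 and 39 members in rats 1 to 5. Members 15, 16, 33 and 46 did so in all 5 rats. The count of 39 rests on the middle library of rat 5, which stood apart. No share of all genes is given beside these counts, or beside those of 45 and 36 members above. They describe the members only.

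**Figure D5:**
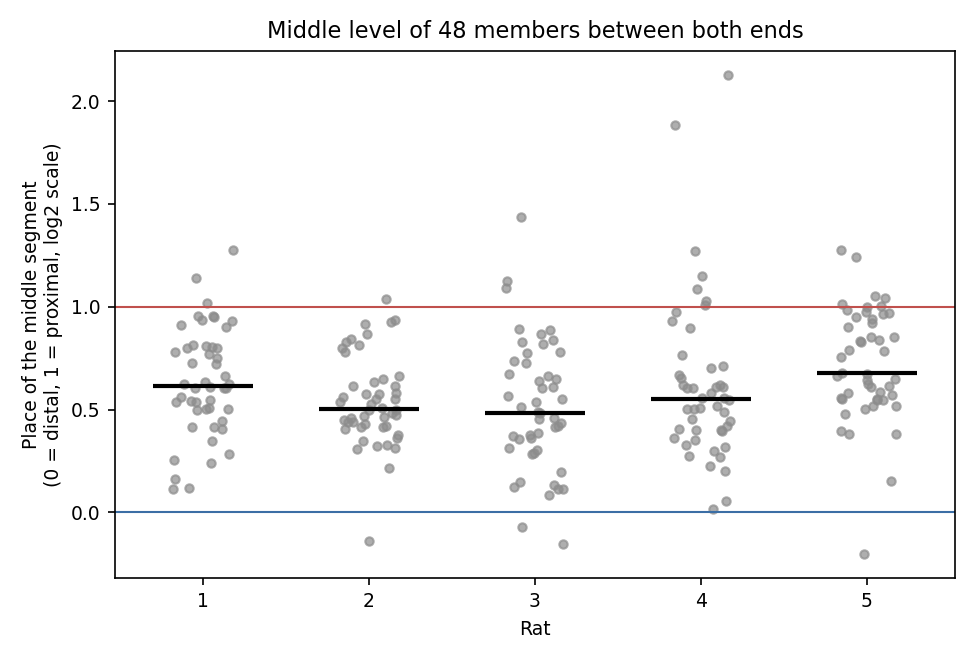
Place of the middle segment between distal (0, lower line) and proximal (1, upper line) on the log2 (CPM + 0.1) scale, by rat. Points are the 48 members and bars the medians, which run from 0.486 in rat 3 to 0.677 in rat 5.

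Single members ranged from a step at the proximal end to a plateau. The mean place over rats was 0.264 ± 0.237 for member 2 and 0.342 ± 0.184 for member 4 (SD, n = 5), whose middle lay on average nearer to the distal end. Without rat 5, whose middle library stood apart, it was 0.161 ± 0.0543 for member 2 and 0.276 ± 0.127 for member 4 (SD, n = 4). Over all 5 rats it was 1.01 ± 0.341 for member 9, 1.11 ± 0.522 for member 16 and 1.05 ± 0.637 for member 34. On this log2 scale their middle on average reached the proximal end. Without rat 2 the means were 1.12, 1.23 and 1.18. Its place was below the mean for each of these members, so leaving it out could only raise the means and is no check. Members 16 and 34 had their highest place in rat 4 (1.88 and 2.13). In mean CPM the middle was below the proximal level for both, at 11.9 against 22.8 and 4.88 against 7.41 CPM. Member 46 was at 3.59, 2.98, 2.47, 2.86 and 2.65 CPM in middle and 7.75, 3.40, 3.04, 2.72 and 2.44 CPM in proximal segments, a place of 0.894 ± 0.177. Apart from rat 1, its middle and proximal levels were nearly alike. Member 27 had no steady place (0.318 ± 0.591): its middle level was 9.99 CPM in rat 1, above the proximal 7.30 CPM, but 2.05 to 3.43 CPM in the other rats. The 13 most even members had places of 0.475 to 0.714, a narrower range than the 0.264 to 1.11 of the 17 uneven ones. The classes were cut on the proximal levels that also enter the place, so this difference is a description.

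For the step from distal to middle, 41 of the 48 members (85.4%) were higher in middle tendon and every fold change was above 0 (edgeR quasi-likelihood fit of region and rat, adjusted p under 0.05 over 15037 genes). Of all genes tested, 13.2% were higher in middle tendon. The distal libraries of this contrast had also chosen the members, so the count is a description. The median log2 fold change was 1.70 for members and 0.01 for all genes tested. The largest after member 16 were 3.12 ± 0.36 for member 33 and 3.07 ± 0.68 for member 43 (approximate SE; edgeR, adjusted p = 0.000714 and 0.00853). Member 15 had the smallest adjusted p (8.6e-05, edgeR) at 1.85 ± 0.13. It was at 3.53, 3.18, 5.86, 2.94 and 4.204 CPM in distal and 14.3, 12.9, 18.6, 12.1 and 17.1 CPM in middle segments, with no overlap. The 7 members not called were members 1, 2, 4, 10, 12, 14 and 27. Of these, 6 belong to the 14 uneven members that were lowest in proximal rats 1 and 2. Without the middle library of rat 5 the count was again 41, and with other single libraries left out it was 34 to 42.

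For the step from middle to proximal, 10 of the 48 members (20.8%) were higher in proximal tendon and again every fold change was above 0 (same test), against 0.273% of all genes tested. Here the proximal libraries were shared with the choice. The 10 were members 10, 11, 13, 15, 21, 22, 23, 31, 33 and 35. Member 33 had the smallest adjusted p (0.0116, edgeR) at a log2 fold change of 2.24 ± 0.27. It was at 0.0850, 0.0994, 0.416, 0.202 and 0.156 CPM in distal, 0.575, 1.01, 1.69, 2.95 and 2.97 CPM in middle and 1.76, 7.84, 14.3, 8.04 and 14.3 CPM in proximal segments. The middle lay between both ends in every rat, and its 5 distal libraries held 25 counts in all. Member 21 followed at 1.01 ± 0.14 (adjusted p = 0.0295, edgeR) with 13.1, 16.03, 18.3, 15.5 and 22.3 CPM in proximal against 9.99, 5.78, 7.48, 5.64 and 15.1 CPM in middle segments. These 2 regions overlapped only through the middle segment of rat 5. The median log2 fold change was 1.02 for members and -0.0034 for all genes tested.

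The other called members were of 2 kinds. Members 11, 31 and 10 belong to the 14 uneven members that were lowest in proximal rats 1 and 2, as does member 33. Member 11 was at 2.23, 2.61, 4.28, 5.34 and 18.1 CPM in middle and 6.30, 6.12, 60.9, 36.5 and 69.9 CPM in proximal segments (log2 fold change 2.31 ± 0.39, edgeR, adjusted p = 0.0437). Member 31 was at 0.863, 0.634, 1.12, 1.69 and 1.86 CPM in middle and 2.43, 2.22, 19.5, 8.89 and 21.2 CPM in proximal segments (2.72 ± 0.39, edgeR, adjusted p = 0.0357). In both the proximal level exceeded the middle in every rat, by far more in rats 3, 4 and 5. Members 13, 15, 21, 22, 23 and 35 had smaller steps of 0.67 to 1.43 log2 units. Member 22 was at 8.23, 3.91, 5.15, 3.34 and 8.59 CPM in middle and 9.37, 10.1, 27.3, 15.4 and 19.4 CPM in proximal segments (1.43 ± 0.25, edgeR, adjusted p = 0.0437). Member 23 was at 4.42, 3.61, 8.18, 7.16 and 8.48 CPM in middle and 4.68, 9.27, 21.6, 16.2 and 22.8 CPM in proximal segments (1.07 ± 0.19, edgeR, adjusted p = 0.0437). In both, rat 1 showed the smallest step. The regions overlapped through rat 1 for member 23 and did not overlap for member 22.

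The 10 members with the largest smallest ratio were members 1, 33, 41, 30, 45, 11, 29, 15, 31 and 25, some of them close to 0 in distal tendon. Member 41 was at 0.0425, 0.0663, 0.567, 0.161 and 0.389 CPM in distal, 1.37, 0.894, 1.99, 0.521 and 2.54 CPM in middle and 1.31, 1.33, 7.86, 4.61 and 6.63 CPM in proximal segments. Its smallest ratio was 8.01, and in rat 1 the middle was slightly above the proximal level. Member 30 was at 0.127, 0.862, 0.453, 0.403 and 0.234 CPM in distal and 1.26, 6.90, 18.2, 10.1 and 19.0 CPM in proximal segments. Its smallest ratio was 5.54. The distal libraries held 32 counts of member 41 and 57 of member 30 in all. Member 29 differed from them, at 0.510, 2.45, 3.21, 0.806 and 0.778 CPM in distal, 8.99, 6.63, 7.57, 5.73 and 4.24 CPM in middle and 10.4, 14.8, 17.0, 7.14 and 14.2 CPM in proximal segments. Here distal and middle values did not overlap, and its middle level was highest in rat 1 and lowest in rat 5.

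Members 12 and 14, like member 10, had middle levels well below the proximal ones in rats 3, 4 and 5. The mean middle level of member 14 was nevertheless 3.96 times its mean distal level, against 2.04 times for member 12 and 2.83 times for member 10. Member 12 was at 2.42, 1.52, 2.57, 2.58 and 1.95 CPM in distal, 2.80, 4.43, 4.63, 2.69 and 7.95 CPM in middle and 8.65, 5.77, 50.5, 29.8 and 74.3 CPM in proximal segments. Its mean place was 0.301 ± 0.309 (SD, n = 5), and 0.176 ± 0.155 without rat 2 (n = 4). Member 14 was at 1.74, 0.199, 0.907, 0.322 and 0.506 CPM in distal, 2.26, 2.80, 1.30, 2.26 and 5.94 CPM in middle and 8.33, 4.29, 45.6, 29.6 and 51.4 CPM in proximal segments. For both the distal-to-middle step was not called (edgeR, adjusted p = 0.254 and 0.0810), and nor was the middle-to-proximal step (edgeR, adjusted p = 0.0597 and 0.0667).

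This second count was fragile. It was 20 without the proximal library of rat 2, a setting in which the calls over all genes also went from 41 to 396. It was 6 without the middle or proximal library of rat 1 (15 and 37 calls over all genes), and 2 without the distal library of rat 2, 3 or 4 (14, 9 and 10 calls). Leaving out the middle library of rat 3, that of rat 4 or proximal rat 4 gave 1 member (5, 4 and 2 calls over all genes). Leaving out middle rat 2 or proximal rat 3 gave 0 members, and 0 calls over all genes, with edgeR, although 41 members in each case had an unadjusted p under 0.05. Without the middle library of rat 5 it was 8. With all libraries 42 members had an unadjusted p under 0.05 (edgeR), and DESeq2 called 36. Limma and the edgeR fit with no rat block called 0 members (41 and 38 at an unadjusted p under 0.05). Under them the 10 members called here had adjusted p-values of 0.0692 to 0.0791 (limma) and 0.138 to 0.167 (edgeR). The call of member 10 was lost with any of the rats left out (edgeR, adjusted p = 0.0516 to 0.255). In the same fit all 48 members, and 22.2% of all genes tested, had higher proximal than distal levels, but that is the contrast that chose them and nothing is read from it.

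The proximal excess was also read in rats that had no part in a choice. The rule was applied to 4 rats and the proximal-to-distal ratio then read in the left-out rat. With rat 1 left out, 62 genes were chosen and 45 of them (72.6%) reached 3 times in rat 1, against 2.71% of all genes with a mean of at least 3 CPM in the other proximal libraries. For rat 4 it was 48 of 49 genes (97.96% against 7.29%) and for rat 5 it was 48 of 60 (80% against 5.7%). For rat 3 it was 48 of 83 (57.8% against 3.08%) and for rat 2 it was 48 of 118 (40.7% against 2.93%). The chosen genes thus met the limit more often than the background in every left-out rat, and least often in rat 2. Without rat 2 the chosen genes included 22 of the 41 variable genes. With all 5 rats, 37 of the 41 missed the ratio condition in rat 2 alone, and 3 met it in every rat. In the left-out rat the middle was above the distal level for 98.4%, 75.4%, 96.4%, 100% and 98.3% of the chosen genes in rats 1 to 5. The same held for 55.3%, 41.8%, 63.4%, 64.3% and 80.05% of the background genes. No library of the left-out rat had taken part in picking these genes, but the limits were set with earlier results of all rats known. The members of the full rule are 45 to 48 of the chosen genes, so those reaching 3 times are nearly the members again. The shares are a description and no independent test of the excess.

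The limit of 3 times was met narrowly by some members. The smallest within-rat ratio was 3.003 for member 32, 3.01 for member 35 and 3.03 for member 9. Just outside, 3 genes that met the level condition had smallest ratios of 2.98, 2.94 and 2.90. The smallest ratio was found in rat 1 for 14 members, in rat 3 for 13, in rats 2 and 5 for 9 each and in rat 4 for 3. Its median over members was 3.84. Counting error alone reached across the limit for 26 of the 48 members, in which the exact 95% interval of the smallest ratio of counts, scaled by library totals, extended below 3. In 16 members at least 1 distal library held fewer than 10 counts, down to 1 count, while proximal libraries held at least 18 counts for every member.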

How the data were processed

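The authors deposited unnormalized read counts, 1 row per Ensembl gene. The submitters' processing notes name featureCounts 2.0.1, SAMtools 1.9, HISAT2 2.2.1, fastp 0.19.10 and build rn6. The strand setting, the annotation and other options are not given in these sources, so how reads of overlapping, antisense or near-identical genes were assigned is unknown. Each column carries its region and rat number.

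CPM used column sums. Counts were fitted in R 4.3.3 with edgeR 4.0.16: filterByExpr (15037 genes, all 48 members among them), TMM scaling, and a robust quasi-likelihood model with region and rat over all 15 libraries. P-values were adjusted by the Benjamini-Hochberg method across the tested genes, and called under 0.05. Approximate standard errors come from each fold change and its F statistic. Alternatives were DESeq2 1.42.0, limma 3.58.1, no rat block, no filter, and rats or libraries left out. The model was tested on simulated data. Same-numbered libraries come from the same animal, per the labels, and their deviations from region means correlated at r over 0.1 in 13 of 15 pairs. The remaining pairs were those of the proximal library of rat 3 with its distal (r = 0.028) and middle (r = -0.0043) libraries. No values for pairs from different rats are given for comparison. The closest libraries of a region differed by far more than counting noise (chi-square per degree of freedom 20.4).

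The members, the lists and the thresholds were chosen with earlier results of these data known. Named members were to be the 10 with the highest mean proximal CPM, the 10 with the largest smallest ratio, those called between proximal and middle, those on lists of pathways and markers, those next to the limit and those with the highest or lowest place of the middle. Without symbols at most 2 identifiers were to be printed, and other members go by number. Intervals are exact (Clopper-Pearson) and cover counting error only.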

Additional observations from a re-analysis of the deposited data

Results flagged for a closer look

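The first 10 members, member 16 and the summed level of all members were screened for 1 library far from the other 4 of its region on log2 (CPM + 0.1). Member 16 was taken in after its proximal value in rat 2 had been seen, so its flag is no outcome of the screen. Of the other 33 groups of 5 libraries, 2 held such a library, where chance gives about 5% of groups. The groups are not independent. The middle library of rat 5 stood at 73.7 CPM for member 2, against 1.79 to 4.77 CPM in the other middle libraries. The same library stood at 43.0 CPM for member 4, against 1.64 to 3.64 CPM. The proximal library of rat 2 stood at 98.5 CPM for member 16, against 2.93 to 5.51 CPM in the other proximal libraries. No cause was tested.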

How the results depend on the processing

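The rule gave 200 genes with a limit of 2 times, 9 with 5 times, 31 with a proximal mean of at least 10 CPM and 24 with 0.5 CPM added to the distal level. All 9, 31 and 24 were among the 48 members. TMM-scaled CPM gave 38 genes, of which 36 were members, and keeping the variable genes gave 51. With 1 rat left out the rule gave 49 to 118 genes. The count of members higher in middle than in distal tendon was within 1.5 times of 41 in every setting run: 44 with DESeq2, 40 with limma, 40 without the filter, 36 with no replicate block, 33 to 40 with a rat and 34 to 42 with a library left out. The count of members higher in proximal than in middle tendon was not steady: 36 with DESeq2, 0 with limma, 0 with no replicate block, 8 without the filter, 0 to 7 with a rat left out and 0 to 20 with a library left out, a setting added after seeing the data. For all genes these settings gave 728, 4, 0 and 41 higher genes with DESeq2, limma, no block and no filter. At an unadjusted p under 0.05, 41 members passed with limma and 38 with no block. The cause was not tested. The median place of the middle was 0.347 on linear CPM, 0.516 with 1 CPM added and 0.540 to 0.588 with a rat left out. Of the fold changes of the first 10 members and member 16, the middle-to-proximal one changed sign for member 9 without rat 2 (-0.20 to 0.36 over the rats left out), and for member 16 without rat 1 (-0.05) or rat 2 (-0.72, up to 1.08 over the rats), and none of these was called. Leaving rat 2 or 5 out of the places of single members was also added after seeing the data. Low distal counts limit the ratios of 16 members.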

Other observations

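Genes that missed the rule in a single rat outnumbered the members. With a mean proximal level of at least 3 CPM, 152 genes met the ratio condition in 4 of 5 rats. The missing rat was rat 2 for 89 of them, rat 3 for 33, rat 1 for 17, rat 5 for 12 and rat 4 for 1. Of the 89 genes missing in rat 2, 37 belonged to the 41 variable proximal genes, and none of the genes missing in another rat did.

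The course of members 16, 34 and 43 was shared by genes outside the rule. In the whole table, 53 genes with a mean proximal level of at least 3 CPM were at least 3 times higher in the proximal library of rat 2 than in every other proximal library, against 1 to 6 genes for each of the other rats. Only these 3 members are among them. In proximal rat 2 they had a median of 29.2 CPM, against 2.61 to 4.22 CPM in the other proximal segments. For 45 of the 53 genes the highest middle library was that of rat 4, which was the highest middle library for 7.87% of all genes at that level. Their median there was 16.1 CPM, against 4.07 to 7.60 CPM in the other middle segments. In distal libraries it was 1.44 to 2.55 CPM. With a limit of 5 times, 21 genes remained and all 21 were highest in the middle segment of rat 4. These genes were picked after member 16 had been seen, and no cause was tested.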
